A study of Mus musculus with 58 samples.

Results

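The TAM receptors Axl, Mertk and Tyro3 and their ligands Gas6 and Pros1 were followed through 34 RNA-seq libraries of mouse microglia. These 5 genes were taken by symbol from the gene annotation and all 5 were found among the 47643 genes of each count table. TAM receptors are receptor tyrosine kinases. Gas6 and protein S, the product of Pros1, bind phosphatidylserine on dying cells with their vitamin K-dependent Gla domain and the receptors with their other end, which bridges the dying cell to the phagocyte. In the brain, Mertk and Axl are the TAM receptors known from microglia, Tyro3 is known mainly from neurons and oligodendrocytes, and signalling through TAM receptors is known to dampen cytokine and interferon responses. Gas6 binds all members of the receptor family, and protein S binds Tyro3 and Mertk.

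The libraries came from 8 groups in 4 experiments. Primary microglia from wild-type mice were given full-length tau fibrils at 2 µg/ml for 24 h (tau, n = 4) or vehicle (n = 4). Adult microglia were isolated with CD11b beads from perfused male mice of about 11 months that carried the P301S human tau transgene (PS19, n = 4) or did not (NTG, n = 4), where the transgene is driven by a prion promoter and the microglia are the host's own. Primary microglia of genotype Cx3cr1 CreERT2/+ with floxed IkbkbCA, in which Cre releases a constitutively active IKKβ (IkbkbCA, n = 5), were compared with microglia that carried the same floxed allele but were Cx3cr1+/+ (IkbkbWT, n = 5). Primary microglia of genotype Cx3cr1 CreERT2/+ with floxed Ikbkb (Ikbkb-/-, n = 4) were compared with Cx3cr1+/+ microglia with the floxed gene (Ikbkb+/+, n = 4). IKKβ, encoded by Ikbkb, is the kinase that releases NF-κB from its inhibitor. By the study's methods all 4 of these groups received 4-hydroxytamoxifen, so that the controls differed also in having no Cre and 2 intact copies of Cx3cr1, the gene into which Cre was inserted. Primary microglia were shaken off mixed glial cultures of newborn hippocampus and cortex. The labels give no culture or animal numbers, so p-values measure the spread between these libraries, which may be partly technical. A further 24 cortex samples were not analysed here.

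The libraries were 3′ libraries, in which each transcript gives reads near its 3′ end, so that a count does not grow with transcript length. Total counts were 1672052 to 8349128 per library. Levels are given as CPM (reads of a gene scaled to a common library size), normalized by the TMM method across all 34 libraries, and fold changes come from a separate edgeR quasi-likelihood fit of the libraries of each comparison. A gene was called where its Benjamini-Hochberg FDR over all genes tested was under 0.05. Microglia markers were present in every library, with a summed level for 10 markers of 3643 to 39789 CPM, but P2ry12, a receptor of resident microglia, had only 3.73 to 9.22 CPM in the tau and vehicle cultures against 2075 to 5377 CPM in adult microglia. Ikbkb fell in Ikbkb-/- microglia (log2 fold change -1.20, SE 0.12, edgeR FDR = 6.34e-07), from 51.3 ± 4.56 CPM (SD, n = 4) to 22.4 ± 2.85 CPM (SD, n = 4). In IkbkbCA microglia Ikbkb was at 52.0 ± 6.71 CPM against 45.6 ± 7.10 CPM (SD, n = 5 each, log2 fold change 0.17, SE 0.12, edgeR FDR = 0.405), and whether the 3′ reads see the inserted transgene was not tested. Cx3cr1 was lower in both Cre-carrying groups, by 0.56 (SE 0.09, edgeR FDR = 0.00153) with IkbkbCA and 1.16 (SE 0.12, edgeR FDR = 1.63e-06) with Ikbkb-/- on the log2 scale.

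On the mouse genome GRCm38, Axl lies on chromosome 7 at 25757273 to 25788705 (minus strand), Mertk on chromosome 2 at 128698956 to 128802894 (plus strand), Tyro3 on chromosome 2 at 119797733 to 119818104 (plus strand), Gas6 on chromosome 8 at 13465374 to 13494490 (minus strand) and Pros1 on chromosome 16 at 62854307 to 62929346 (plus strand). An exon of Gas6 overlaps an exon of Tmem255b on the opposite strand, and the strand setting of the counting is not given in the sources used here. Tmem255b itself was listed with 0 to 10 counts per library. The promoters of the called members, Axl and Gas6, are shown because both genes were called in IkbkbCA against IkbkbWT microglia. They are the 250 bases before the RefSeq transcription start (GRCm38.p6, chr7:25788734-25788983 and chr8:13494536-13494785, both on the minus strand), printed 5′ to 3′, with the letters of a GC box (GGGCGG) or a PU.1 core (GAGGAA) on either strand in capitals.
Axl: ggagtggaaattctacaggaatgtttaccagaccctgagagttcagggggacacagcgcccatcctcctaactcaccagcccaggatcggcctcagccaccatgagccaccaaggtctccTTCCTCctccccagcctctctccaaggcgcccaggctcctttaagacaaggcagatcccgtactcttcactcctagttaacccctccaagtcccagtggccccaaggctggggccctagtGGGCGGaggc
Gas6: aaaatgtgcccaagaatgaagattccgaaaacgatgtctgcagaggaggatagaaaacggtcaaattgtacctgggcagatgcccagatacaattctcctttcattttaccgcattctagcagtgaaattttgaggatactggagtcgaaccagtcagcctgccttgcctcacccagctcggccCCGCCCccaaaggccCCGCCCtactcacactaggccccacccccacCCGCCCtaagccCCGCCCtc
Both strands of these windows were searched for 5 motifs, namely the GC box, the PU.1 core, a GAS element (TTCNNNGAA), an AP-1 site (TGANTCA) and the NF-κB consensus. The Axl window held 1 GC box and 1 PU.1 core and the Gas6 window held 4 GC boxes, while the other 3 motifs were not matched in either. Among all 27025 RefSeq promoter windows of this length, 32.9% held the GC box, 23.1% the PU.1 core, 7.18% the GAS element, 6.87% the AP-1 site and 7.01% the NF-κB consensus. Of the other members, Tyro3 held 1 match to the NF-κB consensus and Pros1 1 GAS element. A match is a run of letters and not a measured binding site.

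The members stood at different places in the microglial transcriptome. Gas6 was among the most abundant transcripts, above 97.5% to 99.8% of the genes with a count in each group, and Mertk lay above 93.8% to 99.6%. Pros1 lay above 86.5% to 97.8% and Axl above 75.1% to 96.1%. Tyro3 was close to the lower limit, above 39.3% to 71.7% of detected genes, with 1 to 10 counts per library in adult microglia.

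Mertk, the receptor most tied to phagocytosis, separated adult microglia from cultured microglia. It had 823, 1030, 1152 and 1414 CPM in NTG microglia and 753, 863, 984 and 1547 CPM in PS19 microglia. In the Ikbkb cultures it ranged from 208 to 470 CPM over 18 libraries, and in the tau and vehicle cultures from 90.6 to 142 CPM over 8 libraries. The adult libraries, the Ikbkb cultures and the tau and vehicle cultures did not overlap. The share of all genes that separate these libraries was not computed. The summed level of 10 microglia markers was also highest in adult microglia, at 23564 to 39789 CPM. It was 5780 to 12200 CPM in the Ikbkb cultures and 3643 to 7922 CPM with tau and vehicle. The part of this wider difference in the Mertk levels was not tested. Because culture and adult isolation were separate experiments with no library in common, age, isolation and batch cannot be told apart here.

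Pros1 was also highest in adult microglia, at 306 ± 73.9 CPM in NTG and 270 ± 110 CPM in PS19 (SD, n = 4 each), and lowest with tau and vehicle, at 60.5 ± 8.55 CPM with tau (SD, n = 4) and a mean of 61.2 CPM with vehicle (43.2 to 85.9 CPM, n = 4). Between these lay the Ikbkb cultures, at 152 to 216 CPM in the group means, and PS19 overlapped them. Gas6 had another order. Its highest group means were 1449 CPM in IkbkbWT, 1410 CPM in Ikbkb-/- and 1271 CPM in Ikbkb+/+, which overlapped one another. IkbkbCA followed at 804 CPM, apart from Ikbkb+/+ in every library, and the other 4 groups had means of 255 to 388 CPM and overlapped their neighbours.

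Axl had its highest group means in PS19 (194 CPM), IkbkbCA (184 CPM) and Ikbkb-/- (129 CPM) and its lowest in vehicle (51.4 CPM) and NTG (29.7 CPM). Neighbours in this order overlapped except at 2 steps, between tau and Ikbkb+/+ and between vehicle and NTG. The group means of Axl differed 6.55-fold between the highest and the lowest group, those of Mertk 10.1-fold, those of Gas6 5.68-fold, those of Pros1 5.06-fold and those of Tyro3 14.9-fold. The highest Tyro3 mean, 17.5 CPM in IkbkbWT, included 1 library at 53.7 CPM, where the group median was 10.4 CPM. The lowest, 1.17 CPM in PS19, came from 1 to 10 counts per library.

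**Figure D1:**
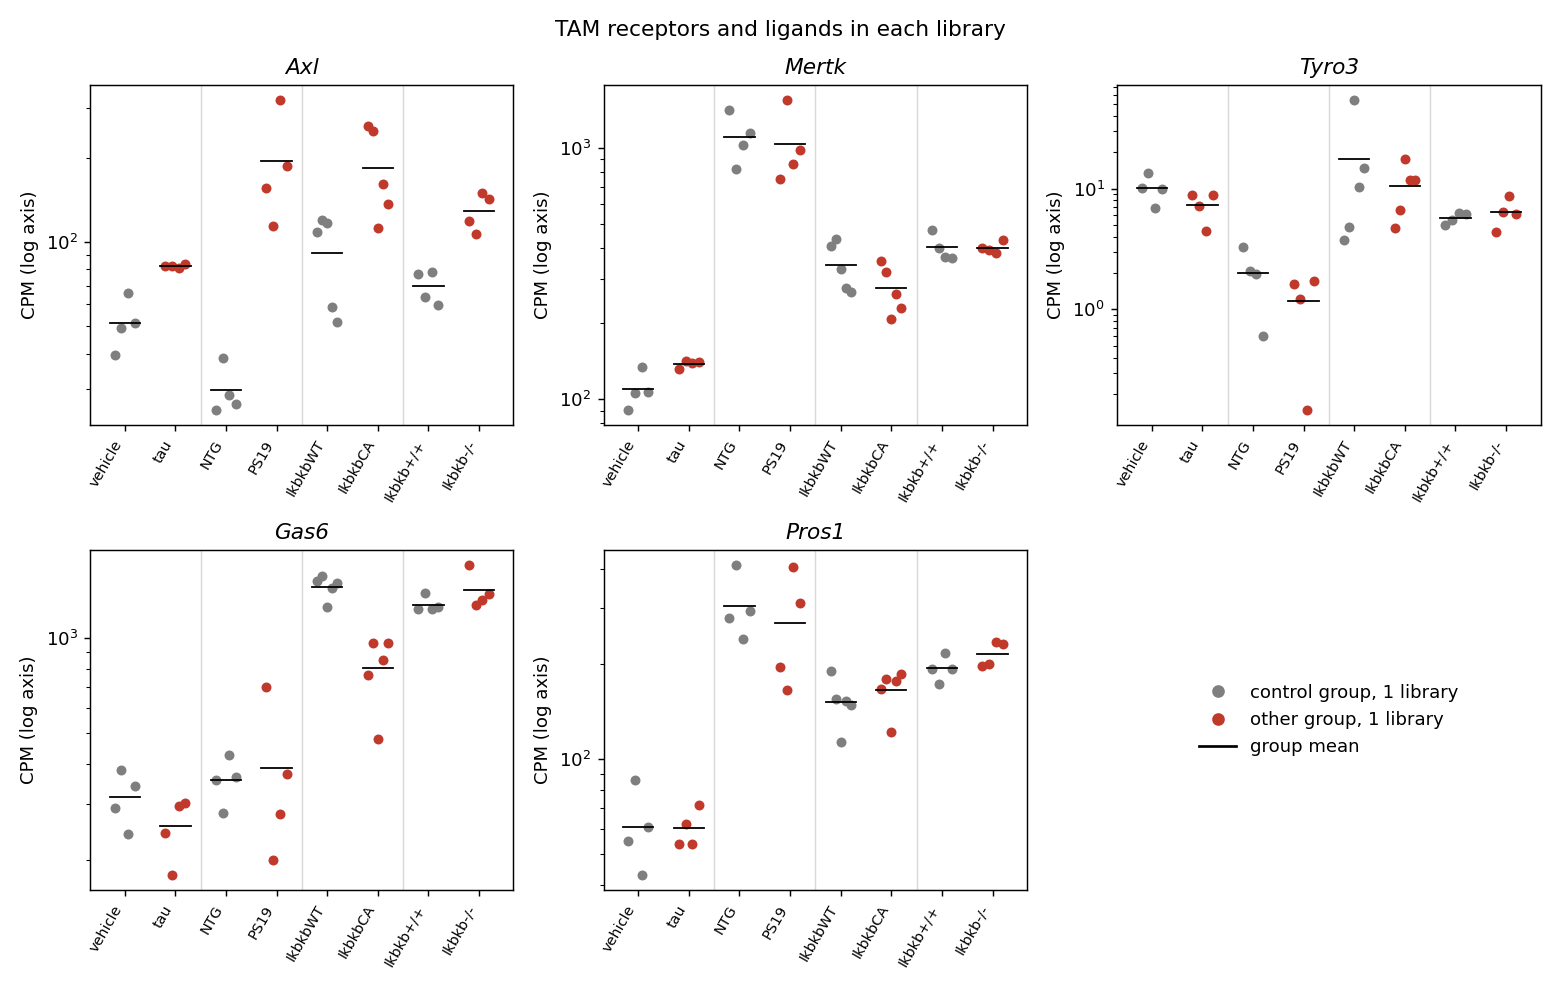
CPM of each gene (log axis) in every library of the 8 groups, with controls in grey, the compared groups in red and a black line at each group mean. Axl has a higher mean in each red group than in its control, Gas6 is lower in IkbkbCA, and 1 IkbkbWT library stands above the others for Tyro3.

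Axl, which is low in resting microglia and known as a gene of disease-associated microglia, was the only member called in more than 1 comparison, and it was called in 4 of 4. With tau fibrils it had 82.3, 82.5, 80.8 and 83.7 CPM against 39.5, 49.2, 65.6 and 51.4 CPM with vehicle. Every tau library lay above every vehicle library, and the tau libraries differed little among themselves. Axl rose by 0.66 on the log2 scale (SE 0.16, edgeR FDR = 0.00187), or 1.58-fold. In this comparison 29.9% of the 10408 genes tested were called, 14.5% as higher, and the groups of 28.4% did not overlap. In a fit of all 34 libraries, which shares 1 estimate of spread, the log2 fold change was 0.67 and not called (edgeR FDR = 0.0983). Ddx3y, a Y-linked gene, was also higher with tau, at 66.2 to 96.6 CPM against 48.0 to 66.5 CPM (log2 fold change 0.45, SE 0.16, edgeR FDR = 0.0305), while Xist, the RNA of the inactive X chromosome, was not called (-0.04, SE 0.16, edgeR FDR = 0.898), and the part of this in the Axl result was not tested. A list of 10 microglia markers, of which 5 rose and 1 fell, had a median log2 fold change of 0.66 with tau, the size of the Axl change. The part of this wider rise of microglial RNA in the Axl result was not tested either.

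In PS19 microglia Axl had 156, 114, 321 and 187 CPM, against 25.2, 38.6, 28.4 and 26.4 CPM in NTG microglia. The 2 groups did not overlap, and the PS19 mice differed more among themselves than the NTG mice. Axl rose by 2.67 on the log2 scale (SE 0.31, edgeR FDR = 0.00301), or 6.39-fold, and it was 1 of 8 genes called among 11323 (0.0707%), where the groups of 5.9% did not overlap. The NTG replicates 3 and 4, which had the labelled age of the PS19 mice (10.98 months), had 28.4 and 26.4 CPM, and the NTG replicates labelled 11.18 months had 25.2 and 38.6 CPM. With age as a covariate the log2 fold change was 2.80 and the call was lost (edgeR FDR = 0.114), as were all other calls (0 genes, with 552 at an unadjusted p under 0.05). PS19 replicate 1, labelled male, had 175 CPM of Xist against 1.88 to 33.0 CPM in the other 7 adult libraries. Among these, PS19 replicates 3 and 4 had 4.43 and 1.88 CPM, while PS19 replicate 2 and the 4 NTG libraries had 28.0 to 33.0 CPM. Without PS19 replicate 1 Axl was called at a log2 fold change of 2.76 (SE 0.32, edgeR FDR = 0.00679). The summed level of 10 granulocyte and monocyte markers was 447 to 2775 CPM in PS19 and 1685 to 2338 CPM in NTG with no marker at 0, 0 of the 10 were called by edgeR (1 at an unadjusted p under 0.05), and their part in the result was not tested.

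In IkbkbCA microglia Axl had 260, 250, 112, 161 and 136 CPM, and in IkbkbWT microglia 109, 120, 117, 58.8 and 52.0 CPM. IkbkbCA replicate 3 lay within the control range and the other 4 lay above it. Axl rose by 0.99 on the log2 scale (SE 0.29, edgeR FDR = 0.0392), or 1.99-fold, where 14.5% of 11697 genes were called and 7.31% were higher. The call was lost on leaving out any 1 of 6 of the 10 libraries (IkbkbCA replicates 1, 2 and 4 and IkbkbWT replicates 1, 4 and 5), with FDRs of up to 0.101 by edgeR and log2 fold changes of 0.85 to 1.15 over the 10 fits.

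The IkbkbCA and IkbkbWT libraries fell into 3 sets, each with libraries of both genotypes, by their oligodendrocyte and fibroblast RNA. IkbkbWT replicate 3 and IkbkbCA replicate 3 had 1906 and 717 CPM of Mbp, the myelin basic protein transcript, against 111 to 249 CPM in the other 8, and replicates 4 and 5 of both genotypes had 8.98 to 13.7 CPM of the collagen gene Col1a2 against 0 to 0.558 CPM. Within replicates 1 and 2, mean Axl was 255 CPM in IkbkbCA and 115 CPM in IkbkbWT. Within replicates 4 and 5 it was 149 and 55.4 CPM, and within replicate 3 it was 112 and 117 CPM, with no difference of the kind seen in the other sets. With the 3 sets as a factor Axl had a log2 fold change of 1.00 (SE 0.17, edgeR FDR = 0.000878), and without both replicate 3 libraries one of 1.25 (SE 0.30, edgeR FDR = 0.0221).

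In Ikbkb-/- microglia Axl had 119, 107, 150 and 142 CPM against 77.2, 63.7, 78.2 and 59.6 CPM in Ikbkb+/+ microglia, without overlap. It rose by 0.91 on the log2 scale (SE 0.12, edgeR FDR = 2.23e-05), or 1.88-fold, where 14.6% of 11242 genes were called, 7.64% were higher and the groups of 17.9% did not overlap. Axl was higher in both Cre-carrying groups, IkbkbCA and Ikbkb-/-, than in their controls. The difference between these effects was 0.10 on the log2 scale (SE 0.37, edgeR FDR = 0.939). Both groups carry Cre in the Cx3cr1 gene and neither control does, so effects of the IKKβ alleles and of Cre or Cx3cr1 cannot be told apart here. In a fit of the 18 libraries of both experiments, which shares 1 estimate of spread, the Ikbkb-/- effect on Axl was 0.90 (SE 0.28, edgeR FDR = 0.0566) and not called, and the IkbkbCA effect was 1.01 (SE 0.24, edgeR FDR = 0.00590). In the fit of all 34 libraries the Ikbkb-/- effect was again 0.90 and not called (edgeR FDR = 0.0533).

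The sex makeup of the cultures, read from transcripts of the Y chromosome and the inactive X, differed in the direction of Axl between Ikbkb-/- and Ikbkb+/+ and among the IkbkbWT libraries, but not among the IkbkbCA libraries. Ddx3y was at 154 to 172 CPM in Ikbkb-/- and 35.0 to 68.2 CPM in Ikbkb+/+ libraries, and Xist was at 5.58 to 10.4 CPM and 239 to 399 CPM. In IkbkbWT, replicates 1 to 3 had 141 to 172 CPM of Ddx3y and 109 to 120 CPM of Axl, while replicates 4 and 5 had 1.10 and 1.98 CPM of Ddx3y and 58.8 and 52.0 CPM of Axl. Replicates 4 and 5 are also the IkbkbWT libraries of the set with higher Col1a2. Sex makeup and set cannot be told apart among the IkbkbWT libraries, also where Ddx3y is a covariate. The 5 IkbkbCA libraries had 48.9 to 84.1 CPM of Ddx3y with 112 to 260 CPM of Axl. Of these, replicates 1 and 2 had 59.2 and 53.4 CPM of Ddx3y with the highest Axl, 260 and 250 CPM, while replicates 4 and 5 had 84.1 and 67.2 CPM of Ddx3y with 161 and 136 CPM of Axl. With Ddx3y as a covariate in the fit of 18 libraries the Ikbkb-/- effect on Axl was 0.61 on the log2 scale (SE 0.23, edgeR FDR = 0.142) and the IkbkbCA effect was 0.91 (SE 0.20, edgeR FDR = 0.00253). Within the Ikbkb-/- experiment the genotype and the sex makeup cannot be told apart, since their ranges did not overlap.

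**Figure D2:**
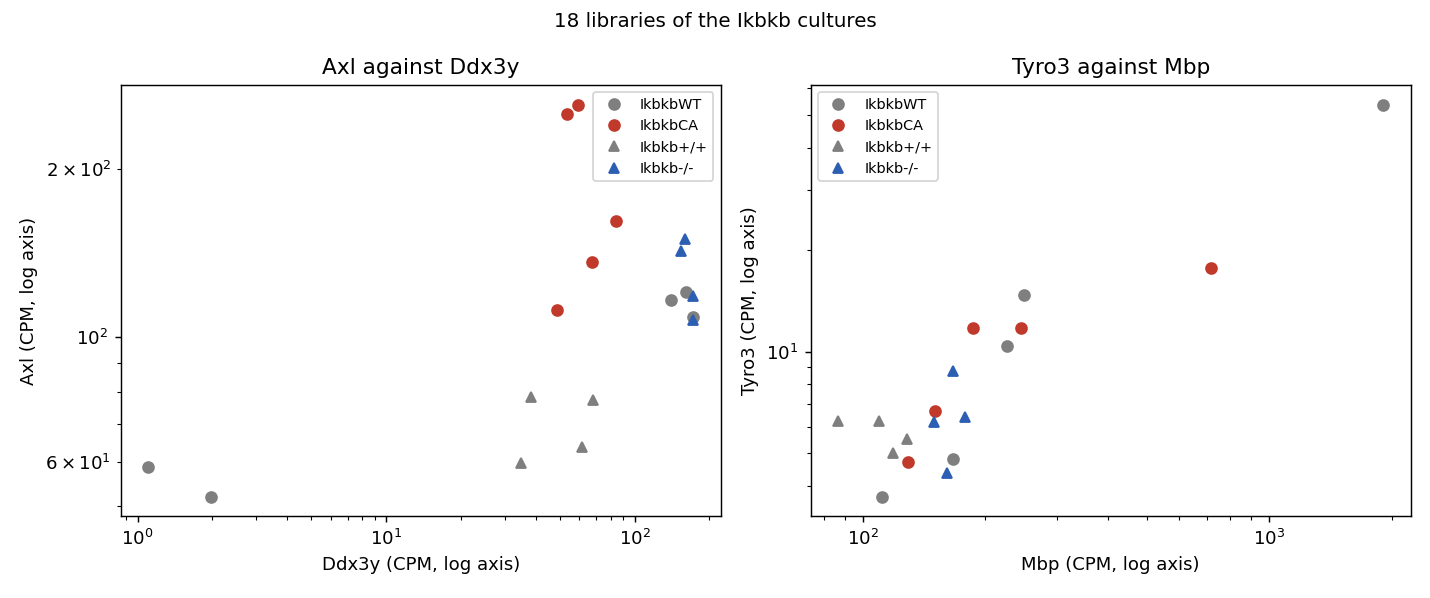
Left, Axl against Ddx3y, and right, Tyro3 against Mbp, both as CPM on log axes, in the 18 libraries of the IkbkbCA and Ikbkb-/- experiments, with 1 point per library. The Ikbkb-/- libraries and IkbkbWT replicates 1 to 3 share high Ddx3y and similar Axl, the IkbkbCA libraries reach the highest Axl, 112 to 260 CPM, at a lower Ddx3y of 48.9 to 84.1 CPM, and the library with the most Mbp, 1906 CPM, has the most Tyro3, 53.7 CPM.

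Mertk was called in 0 of 4 comparisons by edgeR, and likewise by DESeq2 and limma-voom, with an unadjusted p under 0.05 in 1. With tau fibrils it had 132, 142, 139 and 141 CPM against 90.6, 106, 134 and 107 CPM with vehicle, and 3 of 4 tau libraries lay above all vehicle libraries. The log2 fold change was 0.32 (SE 0.14, edgeR FDR = 0.0796), and it was called without vehicle replicate 3, the highest vehicle library (0.43, edgeR FDR = 0.0277). In PS19 it was -0.13 (SE 0.24, edgeR FDR = 0.916). In IkbkbCA Mertk had 356, 322, 208, 262 and 230 CPM against 407, 434, 329, 276 and 266 CPM, a log2 fold change of -0.33 (SE 0.17, edgeR FDR = 0.233). With the 3 sets of libraries as a factor the same change, -0.34, was called (SE 0.08, edgeR FDR = 0.00995), and the sets' Mertk differed from each other more than the genotypes did, from 421 CPM in IkbkbWT replicates 1 and 2 to 271 CPM in replicates 4 and 5. In Ikbkb-/- the log2 fold change was 0.0019 (SE 0.092, edgeR FDR = 0.993), the smallest change of any member.

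Tyro3 was called in 0 of the 3 comparisons in which it passed the filter on low counts, by edgeR, DESeq2 and limma-voom, with an unadjusted p under 0.05 in 0, and it was not tested in PS19, where its counts were 9, 4, 1 and 10 against 6, 5, 9 and 1 in NTG. With tau fibrils its log2 fold change was -0.54 (SE 0.33, edgeR FDR = 0.235). In IkbkbWT it had 3.72, 4.81, 53.7, 10.4 and 14.7 CPM, and in IkbkbCA 4.72, 6.68, 17.6, 11.8 and 11.8 CPM. The IkbkbWT library with 53.7 CPM was replicate 3, which also had the most Mbp, and the summed level of 10 oligodendrocyte lineage markers was 5240 CPM there against 500.3 to 2067 CPM in the other 9 libraries of the experiment. The log2 fold change was -0.76 (SE 0.65, edgeR FDR = 0.520), and it was 0.26 without that library and 0.03 without both replicate 3 libraries. In Ikbkb-/- it was 0.19 (SE 0.22, edgeR FDR = 0.642). There 6 of the 10 oligodendrocyte lineage markers rose (60% called, against 14.6% of all genes), with a sum of 796 to 914 CPM against 490 to 606 CPM and no marker at 0. The part of oligodendrocyte RNA in these Tyro3 levels was not tested.

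Among the ligands, Gas6 fell in IkbkbCA microglia. It had 764, 962, 482, 851 and 961 CPM there against 1511, 1561, 1253, 1437 and 1484 CPM in IkbkbWT. All 5 IkbkbCA libraries lay below all 5 controls, as 12.3% of genes did not overlap in this comparison. Gas6 fell by 0.88 on the log2 scale (SE 0.17, edgeR FDR = 0.00410), to 0.545 of the control level, where 7.16% of genes were called as lower. The call held in the 22 alternatives run for it, with log2 fold changes of -0.95 to -0.71, and in each of the 3 sets of libraries the level was lower in IkbkbCA, at 863 against 1536 CPM, 482 against 1253 CPM and 906 against 1460 CPM. Gas6 is also made by fibroblasts and endothelial cells. The summed level of 10 fibroblast markers was 3.20 to 63.0 CPM in IkbkbCA and 5.02 to 45.8 CPM in IkbkbWT, with none at 0 in every library of a group. Only 1 of them passed the filter on low counts, and it was not called. The sum of 10 endothelial and mural markers was 43.6 to 111 CPM and 32.2 to 89.6 CPM, with Cldn5 at 0 in IkbkbWT. Only 2 of these were tested and neither was called, so most markers of both kinds were not tested. In bulk RNA, fewer cells that make a transcript and less of it per cell cannot be told apart.

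In Ikbkb-/- microglia Gas6 had 1691, 1270, 1310 and 1368 CPM against 1231, 1379, 1227 and 1247 CPM, a log2 fold change of 0.15 (SE 0.10, edgeR FDR = 0.335). The IkbkbCA effect on Gas6 minus the Ikbkb-/- effect was -1.01 on the log2 scale (SE 0.21, edgeR FDR = 0.00939), so the 2 genotypes differed in their effect on Gas6, in a test that called 3.12% of 12352 genes. With Ddx3y as a covariate the difference was -1.01 (SE 0.22, edgeR FDR = 0.0113). With tau fibrils Gas6 had 243, 180, 295 and 302 CPM against 292, 384, 242 and 342 CPM (log2 fold change -0.33, SE 0.16, edgeR FDR = 0.121). That change was called as lower when libraries were scaled by their total count (-0.49, edgeR FDR = 0.0245), a scaling under which the median gene was at -0.16, and without vehicle replicate 3 (-0.43, edgeR FDR = 0.0495). PS19 replicate 1 had 700.4 CPM of Gas6 and the other 3 mice 200 to 372 CPM, against 281 to 427 CPM in NTG, and the log2 fold change was 0.10 (SE 0.33, edgeR FDR = 0.960).

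Pros1 was called in 0 of 4 comparisons by edgeR, DESeq2 and limma-voom and had an unadjusted p under 0.05 in 0, with log2 fold changes of -0.06 with tau fibrils (SE 0.18, edgeR FDR = 0.839), -0.22 in PS19 (SE 0.28, edgeR FDR = 0.866), 0.10 in IkbkbCA (SE 0.14, edgeR FDR = 0.713) and 0.16 in Ikbkb-/- (SE 0.09, edgeR FDR = 0.243). Its groups overlapped in all 4. In IkbkbCA, where Gas6 fell, Pros1 had 167, 179, 122, 177 and 186 CPM against 190, 156, 114, 153 and 148 CPM.

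**Figure D3:**
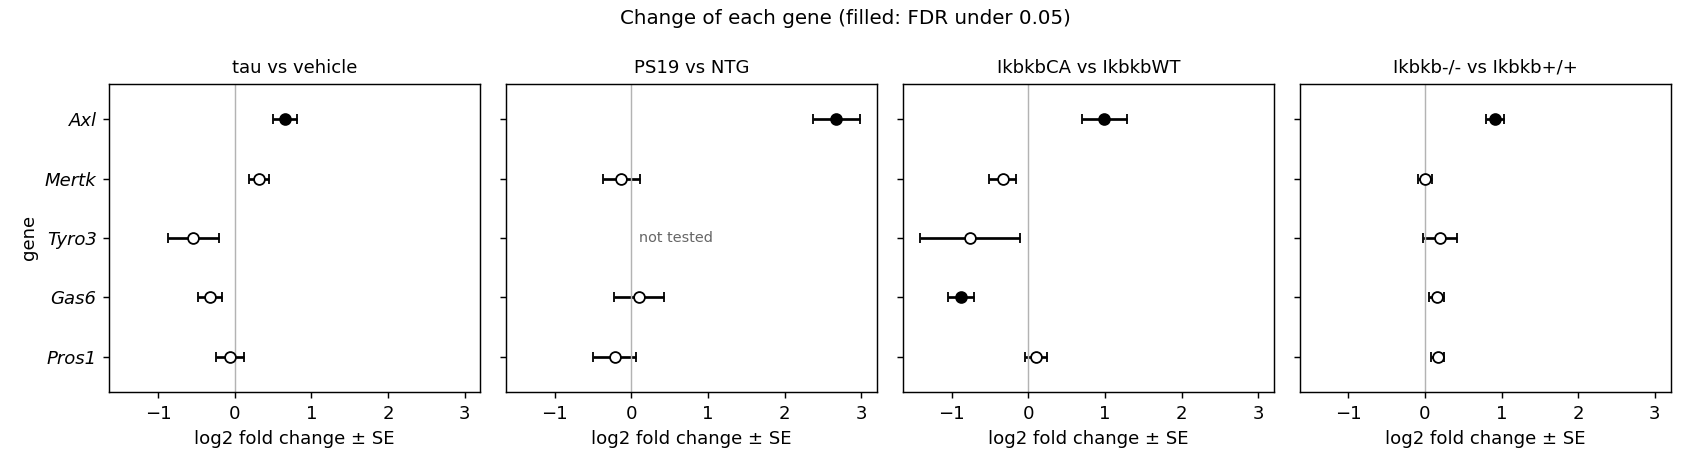
Log2 fold change with its SE for each of the 5 genes in the 4 comparisons, with filled points for an edgeR FDR under 0.05. Axl is filled and positive in all 4 panels, at 0.66, 2.67, 0.99 and 0.91, Gas6 is filled and negative in IkbkbCA only (-0.88), and Tyro3 was not tested in PS19.

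The tau fibril effect and the PS19 effect on Axl differed, by -2.10 on the log2 scale in a fit of their 16 libraries (SE 0.35, edgeR FDR = 0.000349), in a test that called 8.07% of 11852 genes. Axl rose less in culture with tau fibrils than in PS19 microglia, and its control level was higher in culture, at 51.4 CPM with vehicle against 29.7 CPM in NTG. The other 4 members were not called in this test, with differences of 0.36 for Mertk, 0.22 for Tyro3, -0.51 for Gas6 and 0.08 for Pros1 on the log2 scale. The experiments also differ in age, isolation and exposure, which cannot be told apart from the kind of tau.

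The balance of the receptors within a library does not depend on the scaling between libraries. There was 1 read of Axl for many reads of Mertk in NTG microglia, with ratios of 0.0180, 0.0471, 0.0277 and 0.0232, and in PS19 microglia the ratios were 0.207, 0.0739, 0.371 and 0.190. In IkbkbCA they were 0.731, 0.778, 0.537, 0.615 and 0.593 against 0.267, 0.277, 0.355, 0.213 and 0.196 in IkbkbWT, and in Ikbkb-/- 0.298, 0.273, 0.393 and 0.331 against 0.164, 0.159, 0.212 and 0.163. With tau fibrils they were 0.625, 0.582, 0.581 and 0.596 against 0.437, 0.464, 0.490 and 0.483 with vehicle. No ratio of a compared group overlapped those of its control. Among single genes, the groups of 28.4% did not overlap with tau, 5.9% in PS19, 12.3% in IkbkbCA and 17.9% in Ikbkb-/-. Those shares are for the CPM of single genes, and the share among ratios of 2 genes was not computed. The ratios use the same Axl counts as the fits above and are not separate evidence. The geometric mean of the ratio was 6.67-fold higher in PS19 (two-sided exact permutation test, p = 0.0286, BH-adjusted over 8 tests 0.0457) and 2.52-fold in IkbkbCA (exact permutation p = 0.00794, adjusted 0.0317). It was 1.85-fold higher in Ikbkb-/- (exact permutation p = 0.0286, adjusted 0.0457) and 1.27-fold with tau (exact permutation p = 0.0286, adjusted 0.0457). These are the smallest p-values that 4 against 4 and 5 against 5 libraries allow. Without any 1 of the NTG mice the PS19 value was 2.54 or more on the log2 scale, with an exact permutation p of 0.0571.

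The Gas6 to Pros1 ratio was 4.57, 5.38, 3.96, 4.81 and 5.15 in IkbkbCA and 7.96, 10.0, 11.0, 9.39 and 9.99 in IkbkbWT. The geometric mean of the ratio in IkbkbCA was 0.493 of that in IkbkbWT (exact permutation p = 0.00794, adjusted 0.0317). The libraries did not overlap. By CPM the groups of 12.3% of single genes did not overlap, and the share among ratios was not computed. This ratio uses the Gas6 counts already described. The log2 ratio differed by -0.33 with tau (exact permutation p = 0.143, adjusted 0.190), 0.22 in PS19 (exact permutation p = 0.83, adjusted 0.857) and -0.01 in Ikbkb-/- (exact permutation p = 0.857, adjusted 0.857). The ratio was lowest in adult microglia, at 0.682 to 3.57 over 8 mice, a range that overlapped the tau libraries (2.88 to 5.47). Mean Pros1 was highest in adult microglia. Mean Gas6 there, 388 CPM in PS19 and 358 CPM in NTG, was below the Ikbkb cultures but not below vehicle (315 CPM) or tau (255 CPM).

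**Figure D4:**
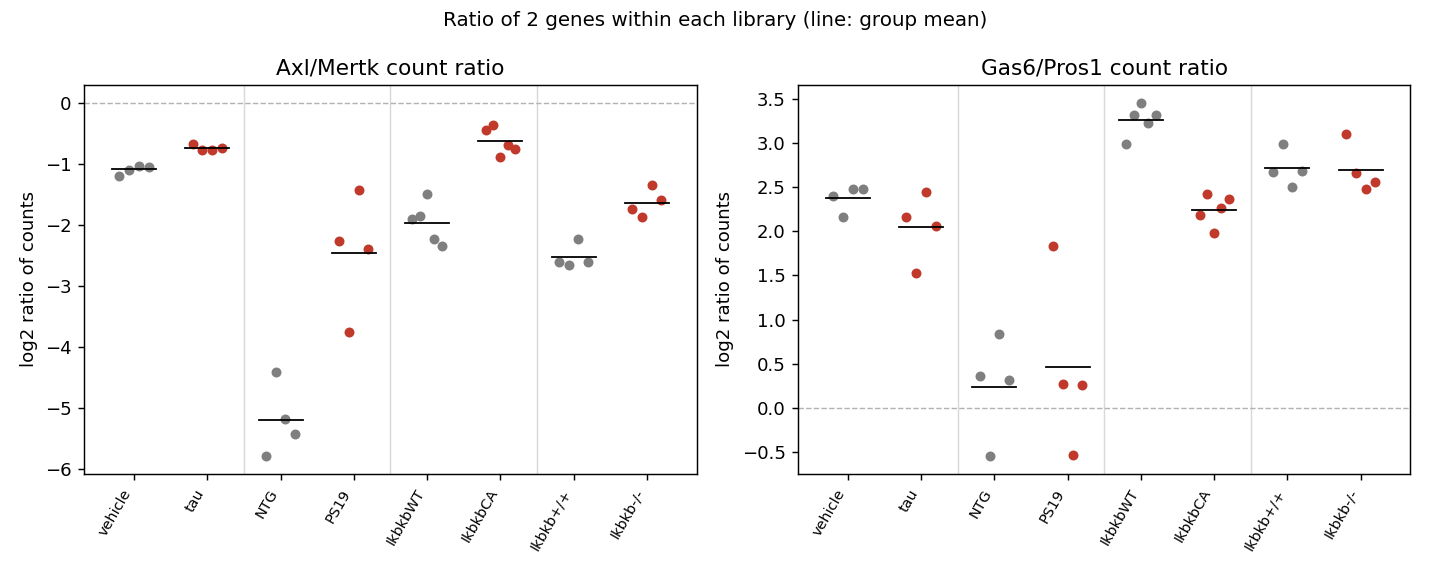
Log2 ratio of Axl to Mertk counts (left) and of Gas6 to Pros1 counts (right) in each library, with controls in grey, the compared groups in red, a black line at each group mean and a dashed line at equal counts. Each red group lies above its control for Axl to Mertk, and IkbkbCA lies below IkbkbWT for Gas6 to Pros1.

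The genes whose levels followed the members most closely were sought by Pearson's r over 34 libraries among 13722 genes, after the mean of each experiment was subtracted. These values describe libraries that share their groups, depth and culture makeup. Axl went most closely with Cst7, which encodes the cysteine protease inhibitor cystatin F (r = 0.90, Spearman's rho = 0.91), then with Sdf4 (r = 0.84) and with Hif1a (r = 0.82), the oxygen-regulated transcription factor. Tyro3 went with Eml1 (r = 0.85), Hspb8 (r = 0.83) and S100b (r = 0.81), the last a calcium-binding protein of astrocytes and oligodendrocytes. Mertk went with Gm37033 (r = 0.82), Daglb (r = 0.80), an enzyme of endocannabinoid synthesis, and Gm37474 (r = 0.79). Gas6 went with Slc17a5 (r = 0.81), the lysosomal sialic acid exporter, Mmd (r = 0.74) and 6430548M08Rik (r = 0.71), and Pros1 with Tmem209 (r = 0.80), Scarb2 (r = 0.78) and Epb41l2 (r = 0.78). No member was near the top for another. Axl and Mertk had an r of -0.01, Axl and Gas6 one of -0.21 and Gas6 and Pros1 one of 0.06.

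The machinery around the receptors was described with a list of 27 genes for ligand carboxylation, receptor shedding and signalling. With tau fibrils 9 of its 24 tested genes rose and 2 fell (45.8% called, against 29.9% of all genes), with a median log2 fold change of 0.23 against -0.01 for all genes. Adam17, a protease that sheds Mertk and Axl, rose by 1.22 (SE 0.14, edgeR FDR = 1.21e-07) and the exchange factor Vav1 by 1.19 (SE 0.17, edgeR FDR = 5.87e-06), while Ptk2 and Elmo1, which act in cytoskeletal signalling and engulfment, fell by 0.67 and 0.57 on the log2 scale.

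In IkbkbCA 6 of 26 tested genes of this list rose and 4 fell (38.5% called, against 14.5% of all genes), with a median log2 fold change of 0.07 against -0.05 for all genes. The kinase Src rose by 1.45 and Socs1, a suppressor of cytokine signalling that TAM receptors are known to induce, by 1.25. Vav3 fell by 1.57 on the log2 scale, Pik3cd by 0.73 and Dock1, an engulfment factor, by 0.43. In Ikbkb-/- 4 of 26 rose and 4 fell (30.8% against 14.6%), with a median of -0.06 against 0.00017 for all genes. Socs1 rose by 1.70 and Ptk2b by 0.46, and Socs3 fell by 1.59 on the log2 scale, Vav3 by 0.88 and Pik3cd by 0.35. Socs1 was low, at a mean of 4.82 against 1.96 CPM in the IkbkbCA comparison and 4.20 against 1.25 CPM in the Ikbkb-/- comparison. In both Cre-carrying genotypes, then, Socs1 rose and Vav3 and Pik3cd fell. A link of these changes to Axl, to Cre or to the sex makeup was not tested. In PS19 0 of 27 were called by edgeR, with 1 at an unadjusted p under 0.05, where 0.0707% of all genes were called.

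Other receptors and bridging proteins for apoptotic cells, in a list of 27, had 6 of 22 tested genes higher and 5 lower with tau fibrils (50% called, against 29.9% of all genes). The C1q chains rose, C1qa by 1.74 to 4205 ± 402 CPM (SD, n = 4), C1qb by 1.38 and C1qc by 1.08, while Mfge8, a bridging protein to integrins, fell by 0.90 on the log2 scale, and the integrin chain Itgb3 and Thbs1 had log2 fold changes of -1.83 and -0.90. In IkbkbCA 4 of 23 rose and 6 fell (43.5% called, against 14.5% of all genes), among them C1qa (0.80), Cd300lf (1.43) and Havcr2 (0.78) upwards, and Stab1 (-1.92), Itgb3 (-1.78) and Cd36 (-1.76) downwards. The scavenger receptors Stab1 and Cd36 fell also in Ikbkb-/- (-1.23 and -1.54), as did Stab2 (-1.48), while C1qa (0.37) and Cd300lf (0.79) rose, so that 2 of 23 were higher and 4 lower (26.1% called, against 14.6% of all genes). In PS19 0 of 21 were called by edgeR, with 4 at an unadjusted p under 0.05.

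Of 15 genes for LXR and PPAR receptors and their targets, the nuclear receptors known to induce Mertk and Axl in phagocytes, 5 of 14 tested rose with tau fibrils and 1 fell (42.9% called, against 29.9% of all genes). Nr1h3, which encodes LXRα, rose by 3.08 (SE 0.30, edgeR FDR = 3.76e-09), from 3.41 to 31.5 CPM, and the cholesterol transporters Abca1 and Abcg1 by 1.06 and 0.87, while the desaturase Scd2 fell by 0.99 on the log2 scale. In IkbkbCA Nr1h3 rose by 2.24 and Pparg fell by 2.25 on the log2 scale, the only calls among 15 genes (13.3%, near the 14.5% of all genes). In Ikbkb-/- Abcg1 rose by 0.28 and Ppargc1b and Lpcat3 fell by 1.10 and 0.30 on the log2 scale, with 14 tested (21.4% called, against 14.6% of all genes), and in PS19 0 of 13 were called by edgeR, with 1 at an unadjusted p under 0.05.

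RNA of other cell types moved with the tau treatment, in which 29.9% of all genes were called. Of 10 astrocyte markers, 6 of 9 tested fell, with a sum of 420 to 494 CPM with tau against 787 to 828 CPM with vehicle and Gjb6 at 0 in both, of 10 neuron markers 6 of 8 tested fell, to 186 to 247 CPM from 356 to 441 CPM with none at 0, of 10 oligodendrocyte lineage markers 4 of 8 tested fell and 1 rose, with a sum of 401 to 449 CPM against 612 to 724 CPM and none at 0, and of 10 microglia markers 5 rose and 1 fell, with a sum of 6764 to 7922 CPM against 3643 to 4382 CPM. Of 10 markers of border-associated macrophages, 3 of 5 tested rose with tau, to 954 to 1136 CPM from 220.2 to 289.7 CPM, with Lyve1 and Clec10a at 0 in the tau libraries, and 7 of 9 fell in Ikbkb-/-, to 1028 to 1468 CPM from 1986 to 2351 CPM, and 5 of 9 fell in IkbkbCA, to 1436 to 1989 CPM from 1822 to 2445 CPM. In both Ikbkb experiments 2 others of these markers rose. Of the 9 tested, 100% were called in Ikbkb-/-, against 14.6% of all genes, and 77.8% in IkbkbCA, against 14.5% of all genes. Of 10 granulocyte and monocyte markers, 2 of 3 tested fell in Ikbkb-/- (66.7% called, against 14.6% of all genes). Their sum was 9.45 to 14.5 CPM there, with Ly6g and Ly6c2 at 0, against 9.80 to 414 CPM in Ikbkb+/+, where replicate 1 was the highest. The part of these shifts in the Axl, Mertk and Gas6 results was not tested.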

How the data were processed

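Counts of 34 QuantSeq 3′ (FWD) libraries were analysed. The authors mapped the reads on the BlueBee platform with the GENCODE GRCm38 genome, by a Lexogen QuantSeq pipeline, and deposited 1 table of counts per library, whole numbers on 47643 Ensembl genes without normalization, followed by 5 lines of uncounted reads, which were left out (reads outside genes were 12.4% to 38.3%). The study's methods give STAR for the cortex samples and RSEM for the count table, and the strand setting is not given in the sources used here. Symbols and coordinates came from GENCODE M21, which matched 47224 identifiers. Promoters came from RefSeq (GRCm38.p6), which matched all 5 members.

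Groups were taken from the sample labels. In R 4.3.3, each comparison was fitted on its own libraries with edgeR 4.0.16 (TMM, filterByExpr with minimum count 10 and minimum total 15, quasi-likelihood test, Benjamini-Hochberg FDR under 0.05), after a test on simulated data. Each SE is the size of the log2 fold change over the square root of F. Differences between effects were interaction terms. Ratios were formed as log2 of counts plus 0.5 and tested by a two-sided exact permutation test. Depth sets precision, and an SE covers counting and the spread between libraries.

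The members, lists and tests were chosen with earlier results of these data known. Named genes were the 5 members, Ikbkb, the 3 genes most correlated with each member, and in each of 3 pathway lists up to 3 called genes with the highest and lowest log2 fold changes per comparison, of which 1 gene is not reported here. Cx3cr1, Mbp, Col1a2, Ddx3y, Xist, P2ry12 and Tmem255b were added after their values were seen, to describe the libraries. The alternatives were RLE normalization, total-count scaling, DESeq2 1.42.0, limma-voom (limma 3.58.1), a floor of 10 counts in each library, no filter, leaving out each library, joint fits of 34 or 18 libraries and age as a covariate. The sets of libraries, Ddx3y as a covariate and leaving out libraries over 500 CPM of Mbp were chosen after seeing the data. Of 56 pairs of libraries within groups 0 were identical. The marker lists held 10 genes for each of 8 cell types.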

Additional observations from a re-analysis of the deposited data

Results flagged for a closer look

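Of 40 sets of 4 or 5 values, 1 for each of the 5 genes in each of the 8 groups, 2 held a library far from the others, where chance gives about 1 in 20. Tyro3 was at 53.7 CPM in IkbkbWT replicate 3, against 3.72 to 14.7 CPM in the other 4, and Gas6 was at 1379 CPM in Ikbkb+/+ replicate 2, against 1227 to 1247 CPM in the other 3. The effects of 2 genotypes or exposures differed for 2 genes by an interaction term in edgeR. The IkbkbCA effect on Gas6 minus the Ikbkb-/- effect was -1.01 on the log2 scale, and the tau fibril effect on Axl minus the PS19 effect was -2.10.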

How the results depend on the processing

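No paired analysis was possible because the labels give the libraries no numbers that groups share, and the 3 sets were read from the libraries' own RNA, not from labels. The call of Axl was lost with 34 libraries fitted together for tau (log2 fold change 0.67) and Ikbkb-/- (0.90), with 18 libraries for Ikbkb-/- (0.90, and 0.61 with Ddx3y as a covariate), and with age as a covariate for PS19 (2.80). In those fits 0 members were called, by edgeR. Total-count scaling, which moved the median of all genes to -0.16 with tau, -0.11 in IkbkbCA and -0.19 for the tau minus PS19 difference, called Gas6 with tau (-0.49), so 2 members were called, and turned Pros1 in the tau minus PS19 difference to -0.033. Mertk in IkbkbCA was called with the sets as a factor (-0.34) and with Ddx3y in 18 libraries (-0.39). Gas6 in PS19 turned to -0.062 with limma-voom and -0.041 with age as a covariate, and Tyro3 in IkbkbCA to 0.031 without libraries over 500 CPM of Mbp. Mertk in Ikbkb-/-, close to 0 throughout, turned to -0.00039 with RLE, -0.028 with total counts, -1.5e-05 with DESeq2, -0.016 with no filter, -0.0099 with at least 10 counts in every library, -0.0026 in 34 and -0.0016 in 18 libraries, and -0.15 with Ddx3y. The cause was not tested in any of these.

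The number of genes called in PS19 was 8, and 95 with DESeq2, 4 with limma-voom, 166 with no filter, 375 with 34 libraries, 0 with age as a covariate (552 at an unadjusted p under 0.05), and 4 to 54 on leaving out 1 mouse, the 54 without PS19 replicate 2. In IkbkbCA it was 1692, and 2846 with the sets as a factor. In Ikbkb-/- it was 1641, and 515 with 34 libraries, 875 with 18 and 776 with Ddx3y. On leaving out 1 library, 1 to 2 members were called in IkbkbCA and 1 to 3 with tau (3 without vehicle replicate 3), and 255 to 431 genes in the IkbkbCA minus Ikbkb-/- difference.

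Log2 fold changes on leaving out 1 library each that lost or gained a call or changed sign were as follows. With tau they were -0.20 to 0.17 for Pros1, 0.24 to 0.43 for Mertk and -0.43 to -0.18 for Gas6, where the last 2 were called without vehicle replicate 3. In PS19 they were -0.35 to 0.025 for Mertk and -0.38 to 0.34 for Gas6. In IkbkbCA they were 0.85 to 1.15 for Axl and -1.0 to 0.26 for Tyro3, and in Ikbkb-/- -0.055 to 0.093 for Mertk. For the IkbkbCA minus Ikbkb-/- difference they were -0.054 to 0.25 for Axl, -1.19 to 0.089 for Tyro3 and -0.13 to 0.056 for Pros1. For the tau minus PS19 difference they were -0.10 to 0.60 for Tyro3, -0.61 to 0.035 for Gas6 and -0.013 to 0.42 for Pros1. The log2 Axl to Mertk ratio in PS19 was 2.39 to 3.17, where leaving out any NTG mouse gave an exact permutation p of 0.0571, and the log2 Gas6 to Pros1 ratio was -0.24 to 0.55 in PS19 and -0.15 to 0.080 in Ikbkb-/-. In IkbkbCA Gas6 was called in all 22 alternatives. Tyro3, with 1 to 10 counts per adult library, is limited by depth.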
